A study of Mus musculus with 4 samples.

Results

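Epithelial stromal interaction 1 (*Epsti1*) and 53 other interferon response genes were examined together in positively selecting thymocytes of control mice and of mice with conditional deletion of the transcription factors Foxa1 and Foxa2 (Foxa1/2cKO). The 54 genes are interferon receptors, interferon-activated transcription factors and interferon-stimulated genes, chosen by gene symbol among the 24421 genes listed, and all 54 were found. RNA was sequenced from CD69+DP thymocytes, which are CD4+CD8+ cells that carry CD69 after a T-cell receptor signal, from C57BL/6 mice aged 6 weeks. The comparison asks how loss of Foxa1 and Foxa2 from the DP stage on alters the RNA of these cells. Controls (control 1 and control 2) carried loxP-flanked *Foxa1* and *Foxa2* alleles (Foxa1fl/flFoxa2fl/fl) and no Cre. Foxa1/2cKO mice (Foxa1/2cKO 1 and Foxa1/2cKO 2) carried the same alleles and CD4Cre, a transgene in which the *Cd4* promoter drives Cre, so deletion occurs from the DP stage on and only this group holds Cre. The effects of Cre and of the deletion therefore cannot be told apart. Each of the 4 samples was sorted from different mice.

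Type I interferons signal through the receptor chains Ifnar1 and Ifnar2, and interferon gamma through Ifngr1 and Ifngr2. Jak kinases at the receptors phosphorylate Stat proteins, which enter the nucleus and bind DNA. A complex that holds Stat2 and Irf9 binds interferon-stimulated response elements (ISRE), while Stat dimers bind gamma-activated sequences (GAS). The genes under these elements encode sensors of viral nucleic acid, enzymes that destroy or modify RNA and proteins, and GTPases that attack the compartments of intracellular pathogens, and in the thymus medulla thymocytes meet interferon without infection.

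Promoter sequences are shown for 6 members whose values the comparison turns on, because 5 of them hold the letters of these elements in different arrangements and *Epsti1* holds none. They are the 150 bases before the RefSeq start site on GRCm38.p6, the assembly also called mm10, printed 5′ to 3′ on the strand of the gene. *Igtp* (chr11:58199406-58199555, plus strand), *Irgm2* (chr11:58214827-58214976, plus strand), *Rsad2* (chr12:26456453-26456602, minus strand), *Isg15* (chr4:156200819-156200968, minus strand), *Bst2* (chr8:71537473-71537622, minus strand) and *Epsti1* (chr14:77904089-77904238, plus strand) are given in this order. None of these stretches overlaps an annotated exon. Capitals mark matches to an ISRE core (GAAA, any 2 bases, GAAA) or a GAS core (TTCNNNGAA) on either strand.
Igtp: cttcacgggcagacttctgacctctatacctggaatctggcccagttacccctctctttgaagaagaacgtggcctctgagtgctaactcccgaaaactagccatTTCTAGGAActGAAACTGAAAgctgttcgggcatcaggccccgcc
Irgm2: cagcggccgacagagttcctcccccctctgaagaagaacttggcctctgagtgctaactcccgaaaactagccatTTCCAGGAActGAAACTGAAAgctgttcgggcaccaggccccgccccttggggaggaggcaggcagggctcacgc
Rsad2: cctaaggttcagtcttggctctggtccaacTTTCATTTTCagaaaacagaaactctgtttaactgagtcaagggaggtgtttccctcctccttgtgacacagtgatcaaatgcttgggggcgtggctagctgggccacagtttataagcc
Isg15: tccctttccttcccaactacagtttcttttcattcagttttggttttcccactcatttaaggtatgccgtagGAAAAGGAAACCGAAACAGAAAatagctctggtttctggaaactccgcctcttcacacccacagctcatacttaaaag
Bst2: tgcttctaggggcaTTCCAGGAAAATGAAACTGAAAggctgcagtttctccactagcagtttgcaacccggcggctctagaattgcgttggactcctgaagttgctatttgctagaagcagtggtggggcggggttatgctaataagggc
Epsti1: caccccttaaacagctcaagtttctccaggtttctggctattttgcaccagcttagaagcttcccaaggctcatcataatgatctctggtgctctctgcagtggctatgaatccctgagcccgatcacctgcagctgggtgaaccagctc

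*Igtp* and *Irgm2*, neighbouring genes for immunity-related GTPases, shared a run of 38 identical bases in these stretches, and in both the GAS core began 11 bases before the ISRE core. The GAS core began at position -45 in *Igtp* and at position -75 in *Irgm2*, counted from the start site. *Rsad2* held 1 ISRE core, read on the opposite strand. *Isg15* held 3 overlapping ISRE cores, and in *Bst2* 2 ISRE cores overlapped each other and a GAS core. *Epsti1* held neither core in this stretch nor in the longer window described next.

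RefSeq promoter windows, from 250 bases before to 50 bases after a start site, were matched for 41 of the 54 members. They were missing for *Usp18*, *Gbp6*, *Ifi27l2a*, *Parp9*, *Mx1*, *Parp14*, *Mx2*, *Gbp4*, *Oas2*, *Nlrc5*, *Rtp4*, *Dhx58* and *Zbp1*. An ISRE core was found in 19 of the 41 members, or 46.3%, and in 3.99% of all 27025 genes with a window, a gene being counted if any of its windows matched. A GAS core was found in 13 members, or 31.7%, and in 9.55% of all genes with a window. The core TGTTTAC, which forkhead factors such as Foxa1 and Foxa2 can bind, was found on either strand in 2 members, *Gbp3* and *Rsad2*, or 4.88%, and in 4.05% of all genes with a window. Both ISRE and GAS cores were present in 6 members (*Oas1a*, *Eif2ak2*, *Igtp*, *Irgm2*, *Gbp7* and *Bst2*), and they overlapped in 1 window. By role, the ISRE core was found in 6 of 7 interferon-inducible GTPases with a window, in 3 of 3 nucleic acid sensors, in 3 of 5 genes of the OAS family and PKR, in 1 of 4 transcription factors and in 0 of 4 receptors. A match describes the letters and is not a binding site, and a window without one says nothing about the factor.

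**Figure D1:**
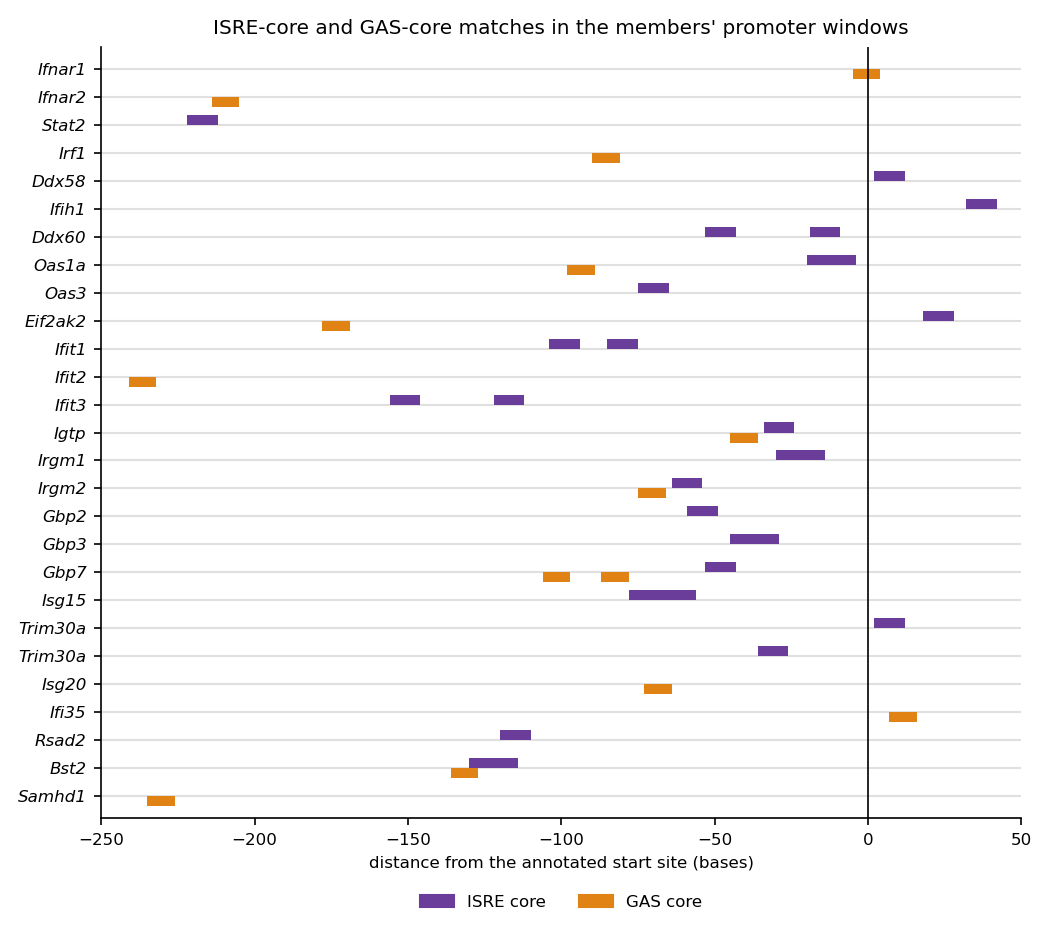
Positions of ISRE-core and GAS-core matches relative to the annotated start site (x axis, in bases, with 0 the start site) in the 27 promoter windows of 26 members that hold at least 1 match. Purple bars are ISRE cores and orange bars GAS cores, and in *Igtp* and *Irgm2* the bars have the same spacing of 11 bases.

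Expression is given in FPKM, fragments counted per kilobase of a gene and scaled by a total for each sample. The steps between values gave back whole reads, 10396459 to 14482108 per sample on the genes listed. The scaling total was 14968316 and 13576813 in the controls and 10796528 in Foxa1/2cKO 1, each above the reads recovered. In Foxa1/2cKO 2 it was 11093927, below the 11261890 reads recovered. Relative to the other samples, values of Foxa1/2cKO 2 are therefore higher than scaling to the recovered reads would give. *Foxa1* and *Foxa2* had a listed value of 0 in every sample of both groups and do not check the genotypes. The 8 markers of CD69+DP cells were all expressed, with a summed FPKM of 2512 and 2557 in the controls compared with 2486 and 3334 in Foxa1/2cKO 1 and 2. Differences on the scale log2(FPKM + 1) were tested by limma over the 10776 genes that reached an FPKM of 1 in 2 or more samples, a scale that understates the change of low genes. Foxa1/2cKO 2 stood apart from the other samples. The first principal component, with 65.2% of the variance, placed it at 28.5 and the other 3 samples between -11.0 and -7.42. The values of both Foxa1/2cKO samples are therefore given apart. In RNA from sorted pools, fewer cells of a type and less RNA per cell cannot be told apart.

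Of the 54 interferon genes, 53 passed the filter on low values. The exception was *Ifi44*, an interferon-induced cytoplasmic protein, with 13 and 2 control reads against 12 and 16 Foxa1/2cKO reads, where 3 reads correspond to an FPKM of 0.0689 to 0.0956, counting error only. The mean FPKM of the 53 tested members ranged from 2.15 to 155, with a median of 19.3. None of the 53 passed an adjusted p of 0.05 (limma, Benjamini-Hochberg over all genes tested), and with the other tool run, limma-voom on the recovered reads, the count was also 0. Of all genes 0.00928% passed, which was 1 gene, the non-coding RNA *2610035D17Rik*. An unadjusted p under 0.05 with a higher mean in Foxa1/2cKO was found for 6 members, or 11.3%, and for 2.39% of all genes. These were *Epsti1*, *Ifngr1*, *Oasl1*, *Irgm2*, *Gbp4* and *Rsad2*. With a lower mean it was found for 0 members and for 2.15% of all genes. The mean of Foxa1/2cKO was the higher in 41 members, or 77.4%, against 51.3% of all genes. The median log2 fold change was 0.15 over the members and 0.01 over all genes tested. With 2 samples a group an exact permutation test has 0.333 as its smallest two-sided p, so p-values of members are given only from limma fitted across all genes. Fold changes are followed by ± the standard error from limma with 2 samples a group, and FPKM are listed in the order control 1, control 2, Foxa1/2cKO 1, Foxa1/2cKO 2.

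Most members were higher in Foxa1/2cKO 1 than in the controls, and most were not in Foxa1/2cKO 2. Foxa1/2cKO 1 lay above both controls in 48 of the 53 members, or 90.6%, against 36.4% of all genes, with a median difference from the control mean of 0.35 on the log2 scale where the median over all genes was -0.01. It lay below both controls in 4, *Ifnar1*, *Ifngr2*, *Stat2* and *Irf1*, or 7.55%, against 40.7% of all genes. Foxa1/2cKO 2 lay below both controls in 28 members, or 52.8%, against 39.6% of all genes, and above both in 17, or 32.1%, against 46.3%. Its median difference was -0.08, with 0.02 over all genes. In 25 members, or 47.2%, Foxa1/2cKO 1 lay above and Foxa1/2cKO 2 below both controls, an arrangement held by 13.0% of all genes.

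Read directly against each other, Foxa1/2cKO 1 was the higher of the pair in 46 members, or 86.8%, and in 46.2% of all genes. The excess was over 0.5 on the log2 scale in 26 members, or 49.1%, and in 10.3% of all genes. The absolute difference between the Foxa1/2cKO samples had a median of 0.45 over the members and 0.20 over all genes, and between the controls the medians were 0.10 and 0.08. In 46 of the 53 members the Foxa1/2cKO samples differed by over 2 standard errors of counting alone, or 86.8%, compared with 46.8% of all genes. The controls did so in 15 members, or 28.3%, compared with 15.5% of all genes. Control 1 was higher than control 2 in 36 members, or 67.9%, and in 47.2% of all genes, with a median difference of 0.07.

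**Figure D2:**
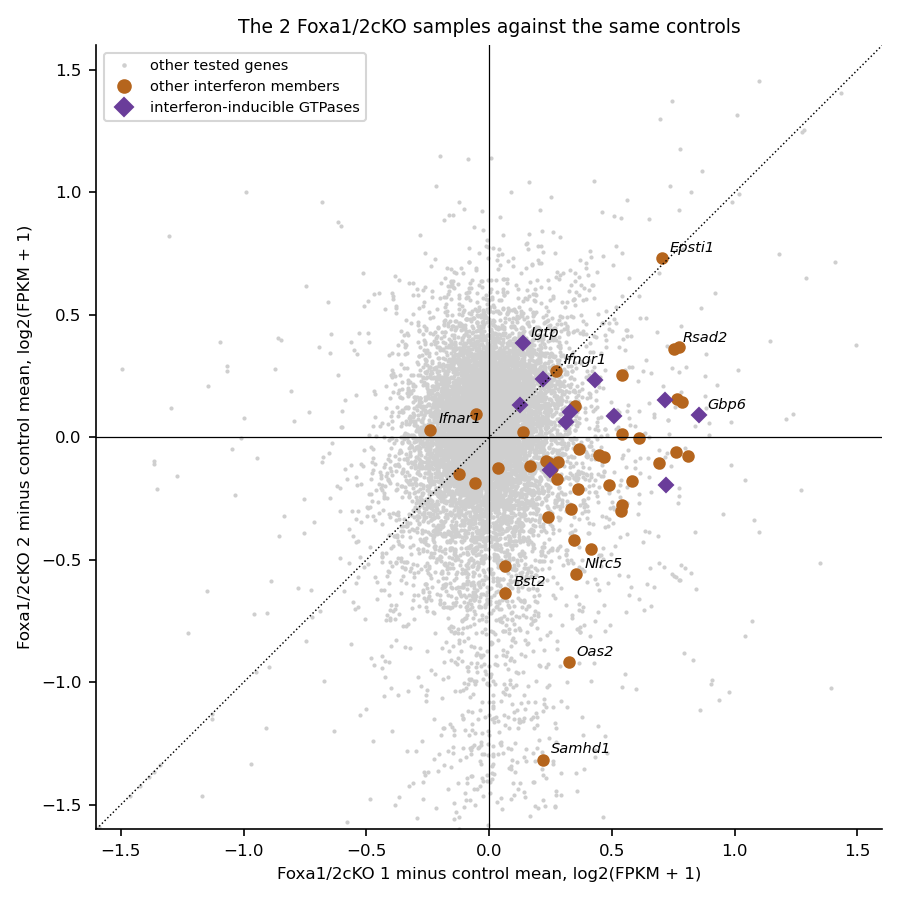
Difference from the control mean on log2(FPKM + 1) in Foxa1/2cKO 1 (x axis) and Foxa1/2cKO 2 (y axis) for all genes tested (grey), the interferon-inducible GTPases (purple diamonds) and the other interferon members (orange circles); the dotted line marks equal differences, and 48 genes, 0 of them members, lie outside the axes. Most members sit to the right of 0 on the x axis, 48 of 53 above both controls there, while on the y axis they spread to both sides.

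Higher values in both Foxa1/2cKO samples than in either control were found in 16 members, or 30.2%, against 18.9% of all genes, and lower values in both in 2 (*Irf1* and *Ifngr2*), or 3.77%, against 17.8%. In 5 members, or 9.43%, the Foxa1/2cKO samples were within 0.1 of each other on the log2 scale, which held for 26.4% of all genes. These were *Epsti1*, *Ifngr1*, *Ifngr2*, *Gbp4* and *Gbp7*, and 4 of them lay above both controls.

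*Epsti1* (chr14:77904239-78002656, plus strand) is an interferon-responsive gene first described in epithelial cells next to stroma. Its FPKM was 35.1 and 37.0 in the controls compared with 59.3 and 60.6 in Foxa1/2cKO 1 and 2, resting on 1166 to 1560 reads. The controls were close together, the Foxa1/2cKO samples were close together, and the groups did not overlap. The log2 fold change was 0.72 ± 0.08 (limma, Benjamini-Hochberg adjusted p = 0.554, with 0.387 to 0.860 over the alternatives with all 4 samples). On log2(FPKM + 1) it was the largest among the 53 members tested, a rank that depends on the pseudocount of 1. The difference was 0.70 for Foxa1/2cKO 1 and 0.73 for Foxa1/2cKO 2. *Epsti1* was chosen with its values in these samples known, so its difference is a description and not independent evidence. Over the remaining 52 tested members the median log2 fold change was 0.14. They had a median of 0.35 in Foxa1/2cKO 1 and of -0.09 in Foxa1/2cKO 2.

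**Figure D3:**
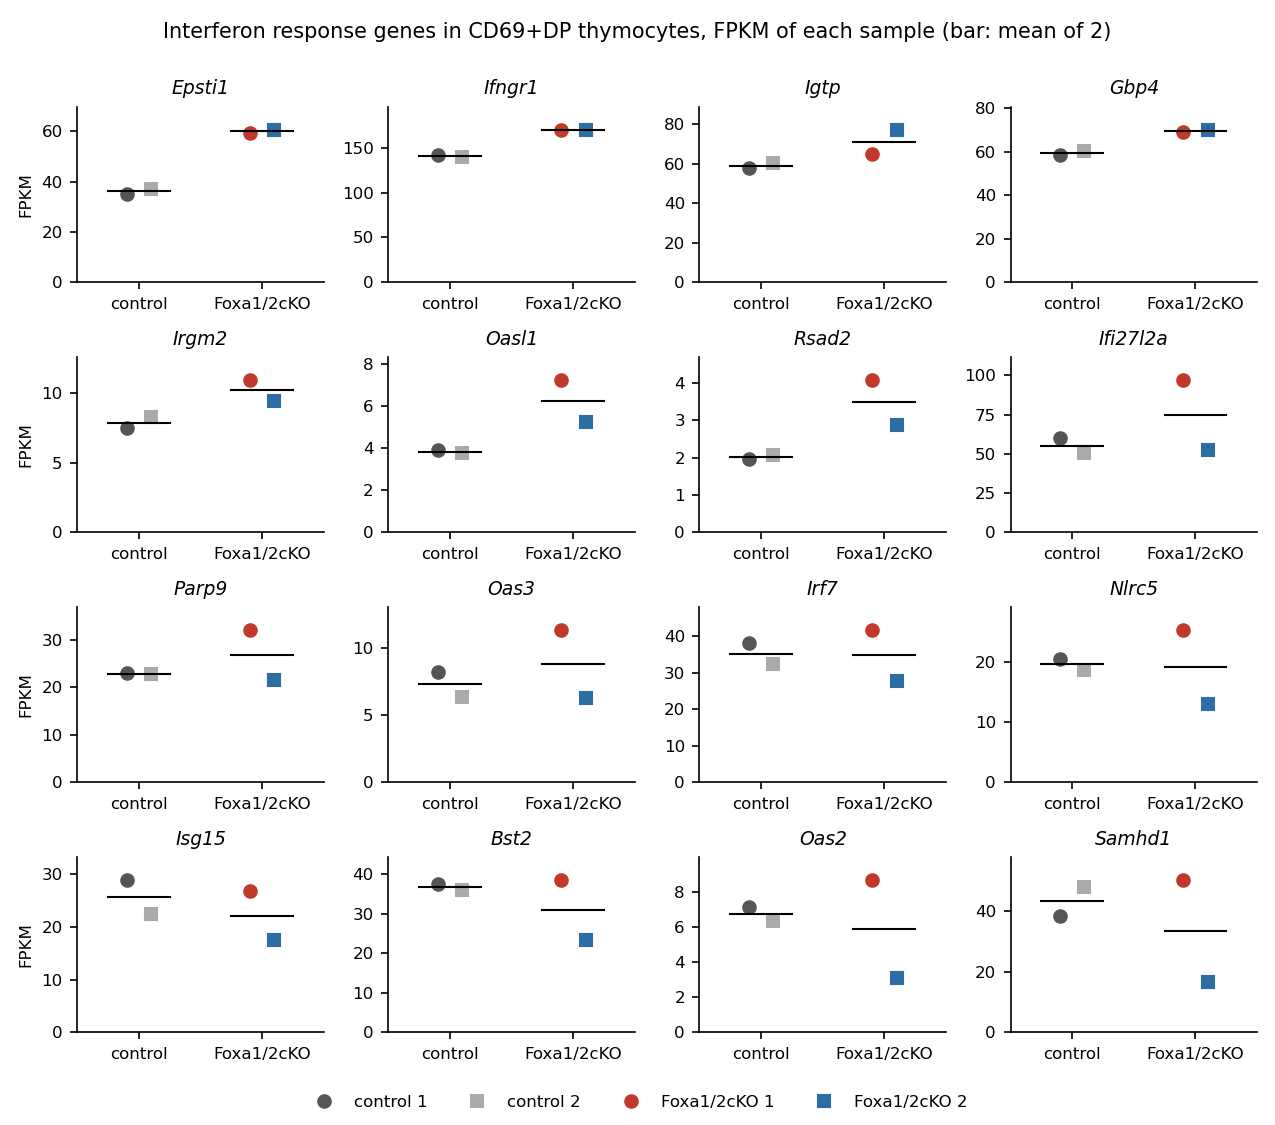
FPKM (y axis, from 0) of 16 interferon genes in each of the 4 samples, with a bar at the mean of each group of 2. In the top row, from *Epsti1* to *Gbp4*, both Foxa1/2cKO samples sit above both controls, while from *Parp9* to *Samhd1*, in the lower rows, Foxa1/2cKO 2 lies below both.

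Of the receptor chains, only *Ifngr1* had both Foxa1/2cKO samples above the controls. *Ifngr1* (chr10:19591949-19610229, plus strand), the chain of the interferon gamma receptor that binds the ligand, was the member with the highest level. Its FPKM was 142 and 139 in the controls compared with 170.1 and 170.2 in Foxa1/2cKO 1 and 2. Its groups did not overlap, with a log2 fold change of 0.27 ± 0.08 (unadjusted p = 0.0210 and Benjamini-Hochberg adjusted p = 0.863 from limma). *Ifngr2* (chr16:91547059-91564007), the partner chain that carries Jak2, had FPKM of 30.4 and 32.5 in the controls compared with 28.8 and 28.2 in Foxa1/2cKO 1 and 2. Both Foxa1/2cKO samples were below both controls, with a log2 fold change of -0.14 ± 0.09. The chains of the type I receptor did not separate the groups. *Ifnar1* was at 26.5 and 28.5 FPKM in the controls compared with 23.1 and 28.1 in Foxa1/2cKO 1 and 2, and *Ifnar2* was at 21.4 and 20.6 FPKM in the controls compared with 21.5 and 19.1 in Foxa1/2cKO 1 and 2. The median log2 fold change of the 4 receptor genes was -0.07.

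Among the 5 transcription factors the median difference from the controls was 0.24 in Foxa1/2cKO 1 and -0.19 in Foxa1/2cKO 2. *Irf7*, which drives transcription of type I interferon genes, was at 38.0 and 32.4 FPKM in the controls compared with 41.7 and 27.8 in Foxa1/2cKO 1 and 2. The Foxa1/2cKO values lay on opposite sides of the controls, and the log2 fold change was -0.04 ± 0.21. *Irf9*, the DNA-binding partner of Stat2, was at 31.4 and 33.1 FPKM in the controls compared with 38.6 and 29.4 in Foxa1/2cKO 1 and 2, again on opposite sides. *Nlrc5*, a transactivator of MHC class I genes, had the widest gap in the group, with 20.5 and 18.7 FPKM in the controls compared with 25.3 and 13.0 in Foxa1/2cKO 1 and 2. *Irf1* (chr11:53770014-53778374), a factor induced by interferon gamma, was at 30.1 and 31.4 FPKM in the controls compared with 29.5 and 26.9 in Foxa1/2cKO 1 and 2, a log2 fold change of -0.12 ± 0.09. *Stat2* had the reverse order of the others, with 24.6 and 24.1 FPKM in the controls compared with 23.4 and 26.1 in Foxa1/2cKO 1 and 2.

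All 5 nucleic acid sensors were higher in Foxa1/2cKO 1 than in both controls, against 36.4% of all genes. Their median difference was 0.54 in Foxa1/2cKO 1 and -0.10 in Foxa1/2cKO 2. *Ddx60*, a helicase that aids RNA sensing, had FPKM of 3.46 and 3.39 in the controls compared with 6.51 and 3.25 in Foxa1/2cKO 1 and 2. Only Foxa1/2cKO 1 was far from the controls, and the log2 fold change of 0.35 ± 0.29 joined a difference of 0.76 in Foxa1/2cKO 1 with -0.06 in Foxa1/2cKO 2. *Ifih1*, which encodes the RNA sensor MDA5, was at 4.94 and 4.63 FPKM in the controls compared with 7.42 and 3.77 in Foxa1/2cKO 1 and 2. *Ddx58*, which encodes RIG-I, was at 21.1 and 19.7 FPKM in the controls compared with 24.1 and 19.0 in Foxa1/2cKO 1 and 2. *Dhx58*, which encodes the related helicase LGP2, was at 11.2 and 9.28 FPKM in the controls compared with 17.1 and 9.42 in Foxa1/2cKO 1 and 2. In these 3 RIG-I-like receptor genes Foxa1/2cKO 1 was the highest sample, and Foxa1/2cKO 2 lay below both controls in *Ifih1* and *Ddx58* and between them in *Dhx58*. *Zbp1*, a sensor of Z-form nucleic acids, was the exception, at 37.1 and 37.2 FPKM in the controls compared with 47.6 and 40.6 in Foxa1/2cKO 1 and 2, so that both Foxa1/2cKO samples exceeded both controls.

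The oligoadenylate synthetases make the activator of RNase L, and PKR (*Eif2ak2*) halts translation on viral RNA. In this list 6 of 6 genes were higher in Foxa1/2cKO 1 than in both controls, against 36.4% of all genes. The median difference was 0.46 in Foxa1/2cKO 1 and -0.14 in Foxa1/2cKO 2. *Oasl1* (chr5:114923143-114937911, plus strand), an OAS-like protein without synthetase activity, had FPKM of 3.90 and 3.75 in the controls compared with 7.24 and 5.22 in Foxa1/2cKO 1 and 2, resting on 108 to 166 reads. Its groups did not overlap, with a log2 fold change of 0.57 ± 0.17 (unadjusted p = 0.0238 and Benjamini-Hochberg adjusted p = 0.863 from limma). *Oas3* was at 8.24 and 6.34 FPKM in the controls compared with 11.3 and 6.29 in Foxa1/2cKO 1 and 2. *Oas2* was at 7.12 and 6.33 FPKM in the controls compared with 8.65 and 3.08 in Foxa1/2cKO 1 and 2. *Eif2ak2* was at 7.60 and 7.90 FPKM in the controls compared with 9.63 and 7.17 in Foxa1/2cKO 1 and 2. In these 3 genes, and in *Oasl2*, the controls lay between the Foxa1/2cKO samples, and *Oas2* differed by 1.24 between the latter on the log2 scale. *Oas1a* was at 1.98 and 1.29 FPKM in the controls compared with 3.43 and 1.91 in Foxa1/2cKO 1 and 2, but 57.6% of the 50-base stretches of its exons also occur in *Oas1g* or *Oas1b*, so its reads are uncertain.

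Genes of the IFIT family, which bind foreign RNA ends, followed the same order. *Ifit1* was at 11.3 and 12.0 FPKM in the controls compared with 17.3 and 9.26 in Foxa1/2cKO 1 and 2, which placed the Foxa1/2cKO samples on opposite sides of the controls. *Ifit3* was at 4.51 and 3.69 FPKM in the controls compared with 5.93 and 3.83 in Foxa1/2cKO 1 and 2, with 51.2% of its 50-base stretches also present in *Ifit3b*. *Ifit2* differed little, at 11.8 and 11.7 FPKM in the controls compared with 13.0 and 11.9 in Foxa1/2cKO 1 and 2. The median difference of the 3 genes was 0.45 in Foxa1/2cKO 1 and -0.07 in Foxa1/2cKO 2.

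Interferon-inducible GTPases, which assemble on the membranes around intracellular pathogens, had a different arrangement. All 11 had a higher mean in Foxa1/2cKO, as did 51.3% of all genes, and 8 of the 11 were higher in both Foxa1/2cKO samples than in either control, as were 18.9% of all genes. Among the 38 tested members that are neither GTPases nor receptors this held for 7, and 22 of the 38 had Foxa1/2cKO 1 above and Foxa1/2cKO 2 below both controls, as did 2 of the 11 GTPases (*Irgm1* and *Mx1*). The median difference of the GTPases was 0.33 in Foxa1/2cKO 1 and 0.10 in Foxa1/2cKO 2, where control 1 and control 2 also differed by a median of 0.10. These counts were read from the values and carry no test. They also depend on the scaling. With scaling to all recovered reads, 12 members in place of 16 had both Foxa1/2cKO samples above both controls. In *Gbp2*, *Gbp3* and *Ifi47* Foxa1/2cKO 2 was only just above control 1, so their place among the 8 rests on the deposited scaling. Further GTPases of these families, on the pathway list and not among the members, were mixed. *Gbp5* and *Gbp8* had a lower mean in Foxa1/2cKO, with Foxa1/2cKO 2 below both controls. *Gbp9* and *Gbp10* had Foxa1/2cKO 1 above and Foxa1/2cKO 2 below both controls. *Tgtp1*, *Tgtp2* and *Iigp1* were higher in both Foxa1/2cKO samples than in either control.

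*Igtp* (chr11:58199556-58207592, plus strand) encodes an immunity-related GTPase. On log2(FPKM + 1) it was the member that exceeded the controls most in Foxa1/2cKO 2 after *Epsti1*, by 0.38. The lower genes *Oasl1* and *Rsad2*, whose change this scale understates, were close behind at 0.37 and 0.36. Its FPKM was 57.6 and 60.2 in the controls compared with 64.8 and 77.1 in Foxa1/2cKO 1 and 2. It was the GTPase with the clearest excess of Foxa1/2cKO 2 over Foxa1/2cKO 1 (log2 fold change 0.26 ± 0.11, limma's Benjamini-Hochberg adjusted p = 0.863). *Irgm2* (chr11:58214977-58222783, plus strand), its neighbour with the shared promoter run, was at 7.51 and 8.28 FPKM in the controls compared with 11.0 and 9.47 in Foxa1/2cKO 1 and 2. Its groups did not overlap, with a log2 fold change of 0.33 ± 0.12 (unadjusted p = 0.0425 and Benjamini-Hochberg adjusted p = 0.863 from limma). The order of the Foxa1/2cKO samples was thus opposite in these neighbours, and 12.3% of the 50-base stretches of *Igtp* also occur in *Irgm2* transcripts. *Irgm1*, a regulator of the other immunity-related GTPases, was at 22.9 and 21.4 FPKM in the controls compared with 26.5 and 20.1 in Foxa1/2cKO 1 and 2.

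*Gbp4* (chr5:105115767-105139586, minus strand), a guanylate-binding protein, had FPKM of 58.4 and 60.2 in the controls compared with 69.1 and 70.1 in Foxa1/2cKO 1 and 2, resting on 3385 to 3967 reads. The Foxa1/2cKO samples were nearly equal and above both controls, with a log2 fold change of 0.23 ± 0.08 (unadjusted p = 0.0381 and Benjamini-Hochberg adjusted p = 0.863 from limma). *Gbp7* was at 13.9 and 12.9 FPKM in the controls and at 14.8 in each Foxa1/2cKO sample, and *Gbp2* at 22.7 and 19.6 FPKM in the controls compared with 26.7 and 22.8 in Foxa1/2cKO 1 and 2. *Ifi47*, another immunity-related GTPase, was at 54.6 and 50.4 FPKM in the controls compared with 65.4 and 54.9 in Foxa1/2cKO 1 and 2. In *Gbp2* and *Ifi47* Foxa1/2cKO 2 was only just above control 1, and *Gbp3* was likewise higher in both Foxa1/2cKO samples. *Gbp6* had the largest difference of a GTPase, at 6.90 and 6.91 FPKM in the controls compared with 13.3 and 7.41 in Foxa1/2cKO 1 and 2, but 59.7% of its 50-base stretches also occur in *Gbp10*, *Gbp11* or *Gm43302*. The dynamin-like *Mx1*, which traps viral nucleoproteins, was at 3.21 and 2.33 FPKM in the controls compared with 5.17 and 2.27 in Foxa1/2cKO 1 and 2, and *Mx2* at 7.80 and 5.44 FPKM in the controls compared with 11.3 and 7.36 in Foxa1/2cKO 1 and 2.

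**Figure D4:**
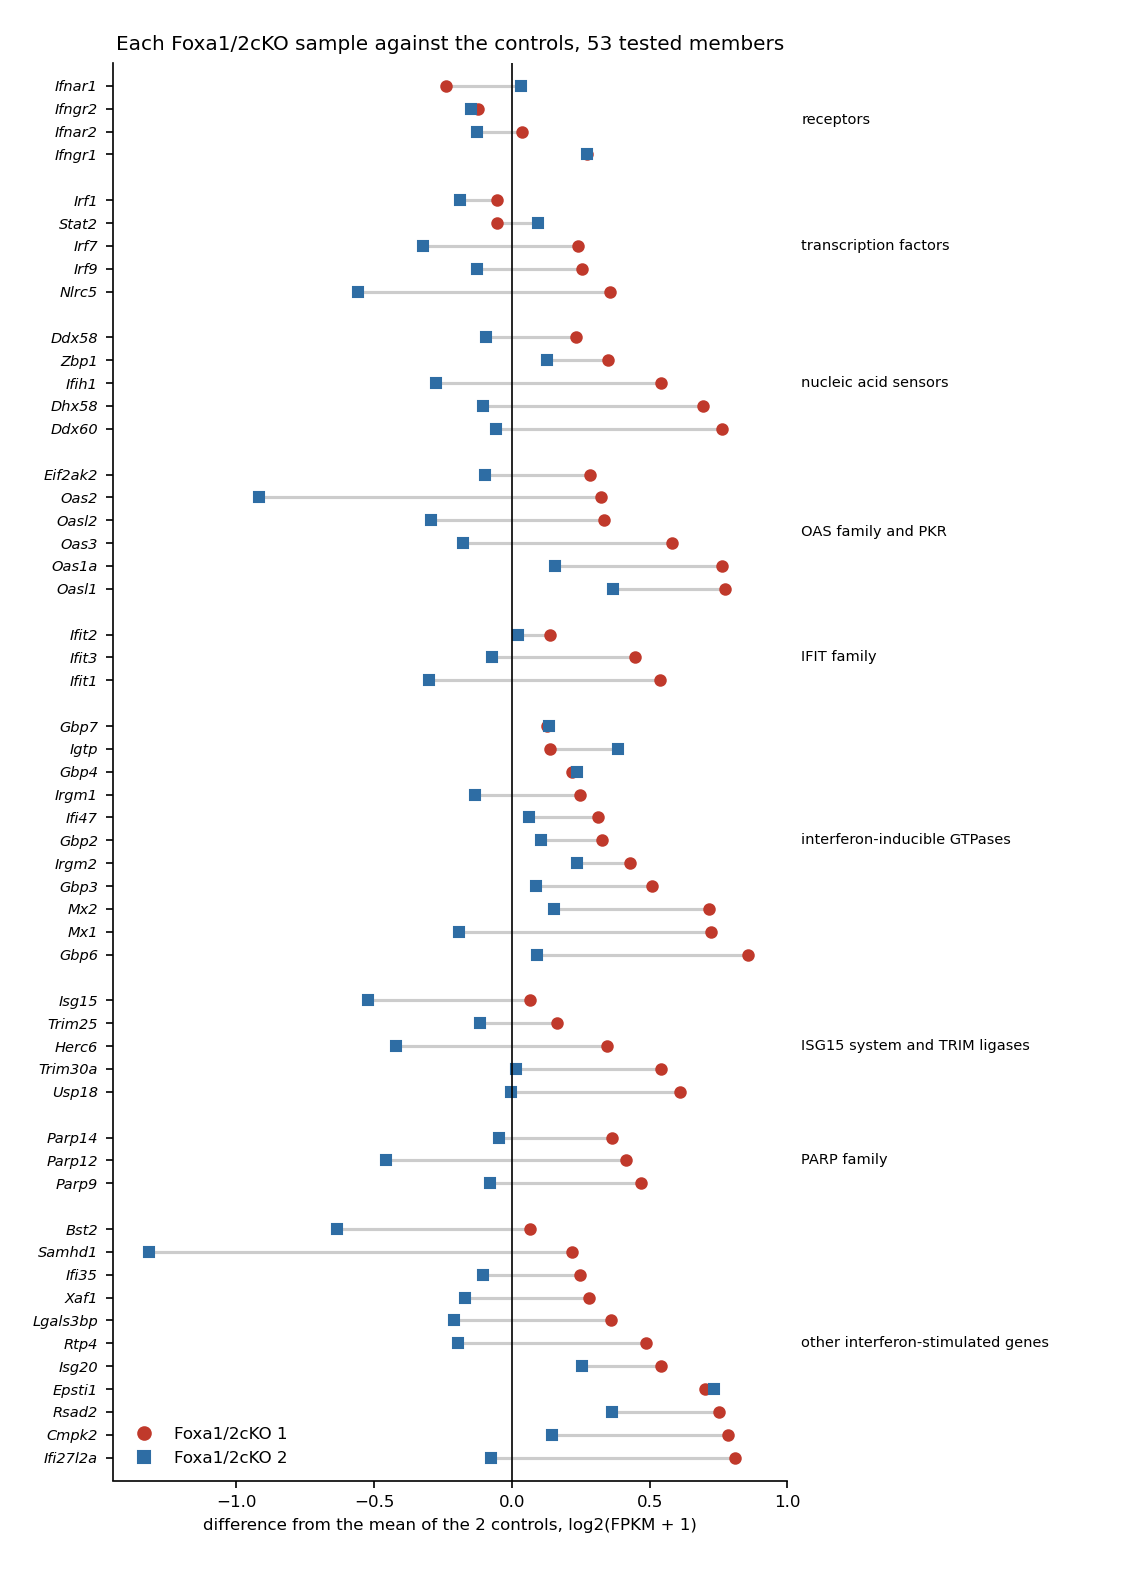
Difference of Foxa1/2cKO 1 (red circles) and Foxa1/2cKO 2 (blue squares) from the mean of the 2 controls on log2(FPKM + 1) (x axis) for the 53 tested members, grouped by role. The circles lie right of the squares in 46 members, and the widest gap is that of *Samhd1*.

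Genes of the ISG15 system and the TRIM ligases had a median log2 fold change of 0.02, made of 0.35 in Foxa1/2cKO 1 and -0.12 in Foxa1/2cKO 2. *Usp18*, which removes Isg15 from proteins and dampens signalling at Ifnar2, was at 12.2 and 9.48 FPKM in the controls compared with 16.9 and 10.7 in Foxa1/2cKO 1 and 2. *Trim30a*, an inhibitor of NF-kB signalling, was at 26.6 and 25.3 FPKM in the controls compared with 38.2 and 26.2 in Foxa1/2cKO 1 and 2. In both genes Foxa1/2cKO 1 alone left the range of the controls. *Trim25*, the ubiquitin ligase of RIG-I, was at 30.2 and 30.9 FPKM in the controls compared with 34.4 and 28.1 in Foxa1/2cKO 1 and 2. *Isg15*, the ubiquitin-like modifier whose promoter holds the 3 overlapping ISRE cores, was at 28.8 and 22.5 FPKM in the controls compared with 26.7 and 17.4 in Foxa1/2cKO 1 and 2. Its ligase *Herc6* was at 6.69 and 7.19 FPKM in the controls compared with 9.09 and 4.93 in Foxa1/2cKO 1 and 2. For *Isg15* and *Herc6* Foxa1/2cKO 2 was the lowest sample, and the controls of *Isg15* differed by 0.34 on the log2 scale.

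The 3 interferon-induced PARP genes, which attach ADP-ribose to proteins, each had Foxa1/2cKO 1 above and Foxa1/2cKO 2 below both controls. That arrangement was held by 13.0% of all genes. *Parp9* was at 23.0 and 22.9 FPKM in the controls compared with 32.1 and 21.6 in Foxa1/2cKO 1 and 2. *Parp14* was at 15.2 and 14.7 FPKM in the controls compared with 19.5 and 14.4 in Foxa1/2cKO 1 and 2. *Parp12* was at 5.13 and 4.38 FPKM in the controls compared with 6.65 and 3.18 in Foxa1/2cKO 1 and 2. The controls of *Parp9* and *Parp14* were nearly equal. *Parp9* overlaps *Dtx3l* on the other strand over 9.40% of its exon bases. The strand setting of the gene counts is not given in the sources used here, so how reads in that overlap were counted is not known.

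In the remaining interferon-stimulated genes Foxa1/2cKO 1 lay above both controls in 11 of 11 tested, against 36.4% of all genes. The median difference was 0.49 in Foxa1/2cKO 1 and -0.11 in Foxa1/2cKO 2. *Rsad2* (chr12:26442743-26456452, minus strand), with 1 ISRE core in its printed promoter, encodes the antiviral enzyme viperin and had FPKM of 1.96 and 2.08 in the controls compared with 4.09 and 2.88 in Foxa1/2cKO 1 and 2, resting on 107 to 167 reads. Its groups did not overlap, with a log2 fold change of 0.56 ± 0.19 (unadjusted p = 0.0326 and Benjamini-Hochberg adjusted p = 0.863 from limma). *Cmpk2*, a nucleotide kinase gene next to it, was at 2.01 and 1.94 FPKM in the controls compared with 4.12 and 2.29 in Foxa1/2cKO 1 and 2, the same order. *Isg20*, an RNA exonuclease, was at 10.7 and 8.23 FPKM in the controls compared with 14.1 and 11.4 in Foxa1/2cKO 1 and 2. *Ifi27l2a*, a small hydrophobic interferon-induced protein, was at 59.8 and 50.5 FPKM in the controls compared with 97.0 and 52.1 in Foxa1/2cKO 1 and 2. *Lgals3bp*, a secreted glycoprotein, was at 58.4 and 51.2 FPKM in the controls compared with 70.4 and 47.1 in Foxa1/2cKO 1 and 2. Foxa1/2cKO 1 was the highest sample in all 5 genes, and Foxa1/2cKO 2 exceeded both controls in *Rsad2*, *Cmpk2* and *Isg20*. *Rtp4*, a receptor-transporter protein, *Ifi35*, a leucine zipper protein, and *Xaf1*, which promotes apoptosis, each had Foxa1/2cKO 1 above and Foxa1/2cKO 2 below both controls.

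*Samhd1*, *Oas2* and *Bst2* had the lowest log2 fold changes of the members, and in each the low sample was Foxa1/2cKO 2. *Samhd1* (chr2:157097534-157135096), which hydrolyses the nucleotides that retroviruses need, had FPKM of 38.5 and 48.1 in the controls compared with 50.2 and 16.7 in Foxa1/2cKO 1 and 2. The log2 fold change was -0.55 ± 0.52, and the Foxa1/2cKO samples differed by 1.54 on the log2 scale, the widest gap among the members, with a counting error of 0.06. *Bst2* (chr8:71534255-71537472), the virus tether tetherin, was at 37.6 and 35.9 FPKM in the controls compared with 38.5 and 23.3 in Foxa1/2cKO 1 and 2. The log2 fold change, -0.28 ± 0.24, again came with a low Foxa1/2cKO 2, and Foxa1/2cKO 1 lay 0.06 above the control mean.

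With each Foxa1/2cKO sample set alone against the controls, the members that passed the test depended on which sample was used, the lone sample being assumed to vary like the controls. Without Foxa1/2cKO 2, 1 member had an adjusted p under 0.05 and was higher, *Epsti1* (limma's Benjamini-Hochberg adjusted p = 0.0431), where 0.0464% of all genes passed in that direction. No member was lower, where 0.130% of all genes passed. Without Foxa1/2cKO 1, 4 members were higher at an adjusted p under 0.05, *Epsti1*, *Ifngr1*, *Igtp* and *Gbp4*, where 12.4% of all genes passed. In the same fit 6 members were lower, *Samhd1*, *Oas2*, *Bst2*, *Nlrc5*, *Isg15* and *Herc6*, where 11.3% of all genes passed. The shares of the members, 7.55% and 11.3%, were below and equal to those backgrounds. At an unadjusted p under 0.05, Foxa1/2cKO 1 alone gave 41 members higher and 1 lower (*Ifnar1*), with 7.61% and 9.88% of all genes. Foxa1/2cKO 2 alone gave 5 higher and 11 lower, with 21.5% and 17.7% of all genes. These fits share the controls with each other and with the comparison of the groups.

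The excess of Foxa1/2cKO 1 was seen among low and high members and was larger among the low ones. Foxa1/2cKO 1 lay above both controls in all 26 members under the median level, with a median difference of 0.54. At or above that level it did so in 22 of the 27 members, with 0.25. The share over all genes was 36.4%, and shares over all genes of the same levels were not taken. Without *Gbp6*, *Oas1a*, *Ifit3* and *Herc6*, whose sequence is shared with other genes, the median over the 49 remaining tested members was 0.33 for Foxa1/2cKO 1 and -0.10 for Foxa1/2cKO 2. The 19 members with an ISRE core had medians of 0.43 and -0.06 in Foxa1/2cKO 1 and Foxa1/2cKO 2, and the 21 tested members with a window and no ISRE core 0.27 and -0.13. The 13 members with a GAS core had medians of 0.14 and 0.02, and the 27 tested members without one 0.35 and -0.12.

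Beyond the members, 67 of 86 further genes on a list of the pathway were tested, and 0 passed the adjusted p of 0.05 (limma, Benjamini-Hochberg). An unadjusted p under 0.05 was found for 6 that were higher in Foxa1/2cKO and 0 that were lower, against 2.39% and 2.15% of all genes. These 6 were the receptor kinases *Jak1* and *Jak2*, the schlafen genes *Slfn2* and *Slfn5*, the Parp9 partner *Dtx3l* and the GTPase *Iigp1*. The median log2 fold change of the 67 genes was 0.12 (0.17 for Foxa1/2cKO 1, 0.01 for Foxa1/2cKO 2). Of the interferon ligands, 9 of 10 were listed at 0 in all 4 samples, and *Ifng* had 2 to 6 reads. *Jak1* was at 144 and 136 FPKM in the controls compared with 167 and 189 in Foxa1/2cKO 1 and 2, with a log2 fold change of 0.34 ± 0.10. *Jak2* was at 37.2 and 36.6 FPKM in the controls compared with 43.2 and 44.5 in Foxa1/2cKO 1 and 2, with a log2 fold change of 0.24 ± 0.08. *Slfn5*, of the schlafen family that restrains cell growth, was at 11.6 and 12.6 FPKM in the controls compared with 16.2 and 16.5 in Foxa1/2cKO 1 and 2, with a log2 fold change of 0.41 ± 0.09. *Jak1*, *Jak2* and *Slfn5* were like *Epsti1* and *Gbp4* in being higher in both Foxa1/2cKO samples than in either control.

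Markers of other cell types also differed between the samples. Of the B cell markers, 6 of 6 tested were higher in Foxa1/2cKO 1 than in both controls, against 36.4% of all genes. Control 1 was higher than control 2 in 5 of these 6. Their summed FPKM was 83.0 and 54.6 in the controls compared with 111 and 58.1 in Foxa1/2cKO 1 and 2. Of the markers of mature SP thymocytes, 6 of 7 were lower in Foxa1/2cKO 2 than in both controls, against 39.6% of all genes. The summed FPKM of this list was 304 and 334 in the controls compared with 358 and 231 in Foxa1/2cKO 1 and 2. This list shares *Slfn1* with the interferon pathway. The list of plasmacytoid dendritic cells, which make type I interferon, includes the member *Bst2* and the pathway gene *Irf8* and had a summed FPKM of 437 and 411 in the controls compared with 348 and 564 in Foxa1/2cKO 1 and 2. Most of that sum was *Ccr9*, which thymocytes also express, and a sum over the other 6 markers, chosen after seeing the data, was 103 and 93.9 in the controls compared with 102 and 74.6 in Foxa1/2cKO 1 and 2. The myeloid and dendritic list summed to 114 and 89.1 FPKM in the controls compared with 113 and 132 in Foxa1/2cKO 1 and 2, and without its most abundant gene *Cst3* to 31.4 and 19.1 compared with 30.0 and 15.5. In each of these lists 6 of 7 tested markers were higher in Foxa1/2cKO 1 than in Foxa1/2cKO 2, and without the most abundant gene Foxa1/2cKO 2 had the lowest sum. *Clec9a* had 1 read in each control and in Foxa1/2cKO 1 and 0 reads in Foxa1/2cKO 2, too few to tell the samples apart. Among erythroid markers *Hbb-bs*, *Hba-a1* and *Hba-a2* were at 0 in all 4 samples. None of the 6 B cell or 7 mature SP markers tested was at 0 in any sample. The part of these cell types in the differences of the interferon genes was not tested.

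**Figure D5:**
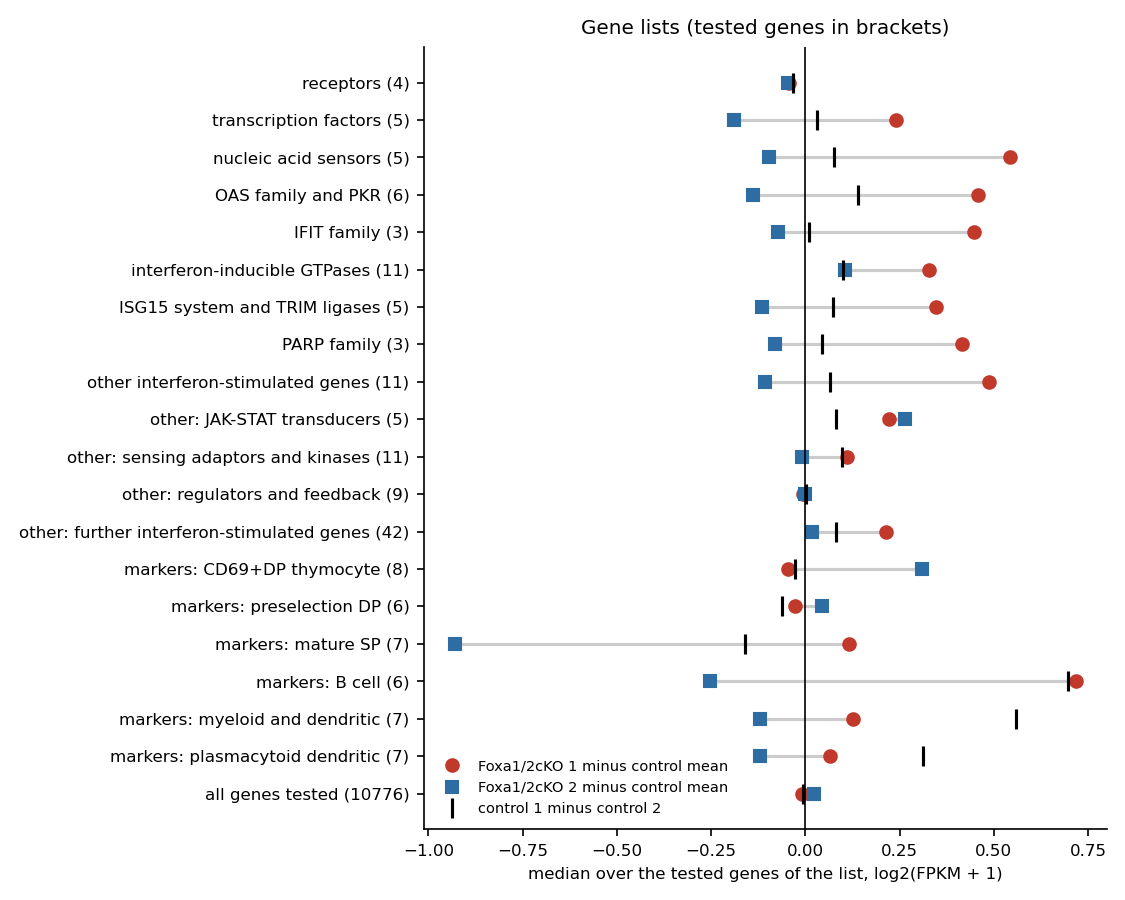
Median difference on log2(FPKM + 1) (x axis) over the tested genes of each list, for Foxa1/2cKO 1 minus the control mean (red circles), Foxa1/2cKO 2 minus the control mean (blue squares) and control 1 minus control 2 (black ticks), with the number of tested genes in brackets. The B cell markers and most interferon lists have their circle right of their square, and the control tick of the B cell list, at 0.70, lies beside its circle at 0.72.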

How the data were processed

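The authors aligned RNA-seq reads of sorted CD69+DP thymocytes to mm10, took RefSeq genes and counted reads per gene with HTSeq in union mode, and they tested for differential expression with DESeq2 and fdrtool. The deposited values are FPKM per gene and sample, and how the authors made FPKM from counts is not given in the sources used here. The spacing of a gene's values gave back its whole reads, to a tolerance of 0.001, for 100% of the 16069 genes above 0. For 2 members the smallest whole reads were multiplied to give a whole gene length.

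Foxa1/2cKO was compared with control by limma 3.58.1 in R 4.3.3 on log2(FPKM + 1) with the prior variance trended on the mean. The fit took genes that reached an FPKM of 1 in 2 or more samples, and p-values were adjusted over all of them by the Benjamini-Hochberg method at a threshold of 0.05. The fit had 2 residual and 2.69 prior degrees of freedom, and was tested on simulated data. Alternatives were limma-voom on the recovered reads, no filter on low values, a pseudocount of 0.1, upper-quartile scaling, a replicate block and leaving out each sample. Scaling to all recovered reads was chosen after seeing the data.

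The members and gene lists were chosen with earlier results of these data known. The genes named are *Epsti1*, members with an unadjusted p under 0.05, in each role list the 2 with the highest mean FPKM and the one with the largest absolute log2 fold change, members that failed the filter, and pathway genes with an unadjusted p under 0.05. Results of 2 genes are not reported here. Chosen after their values were seen were *Samhd1*, *Bst2*, *Isg15*, *Oas2*, *Herc6*, *Nlrc5*, *Ifnar1*, *Ifnar2*, *Stat2*, *Gbp7*, *Gbp2*, *Ifi47*, *Isg20*, *Cmpk2*, *Parp12*, *Ifih1*, *Dhx58*, *Irgm1*, *Mx1*, *Mx2* and *Oas1a*, and those named for their order of samples alone. Promoter windows came from RefSeq on GRCm38.p6. Sequence shared between genes was counted as 50-base stretches of exons. Python 3.11.15 with matplotlib 3.10.9 drew the figures, and tables used pandas 2.3.3 and numpy 2.4.6.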

Additional observations from a re-analysis of the deposited data

How the results depend on the processing

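Foxa1/2cKO 1 and Foxa1/2cKO 2 decided most values. When samples were left out singly, the median log2 fold change of the members ranged from -0.081, without Foxa1/2cKO 1, to 0.35, without Foxa1/2cKO 2. Members with an adjusted p under 0.05 in limma numbered 0 to 10, those with an unadjusted p under 0.05 and a higher mean 1 (without either control) to 41, and those with a lower mean 0 to 11. Members with every remaining Foxa1/2cKO sample above every remaining control numbered 16 to 48, and with every one below 3 to 28. The 48 are the members with Foxa1/2cKO 1 alone above both controls, and the 28 those with Foxa1/2cKO 2 alone below both. With all 4 samples the counts were 16 and 2. Genes of all kinds with an adjusted p under 0.05 numbered 0 to 2559, and 0 with voom, without the filter, with a pseudocount of 0.1 and with scaling to all recovered reads, against 1. The log2 fold change turned its sign on leaving out 1 sample in 28 of the 54 named genes, with these lowest and highest values: *Bst2* -0.63 to 0.065, *Ddx58* -0.096 to 0.23, *Ddx60* -0.058 to 0.76, *Dhx58* -0.10 to 0.69, *Eif2ak2* -0.099 to 0.28, *Herc6* -0.42 to 0.35, *Ifi27l2a* -0.077 to 0.81, *Ifih1* -0.28 to 0.54, *Ifit1* -0.30 to 0.54, *Ifit3* -0.072 to 0.45, *Ifnar1* -0.24 to 0.032, *Ifnar2* -0.13 to 0.036, *Irf7* -0.32 to 0.24, *Irf9* -0.13 to 0.25, *Irgm1* -0.13 to 0.25, *Isg15* -0.52 to 0.066, *Lgals3bp* -0.21 to 0.36, *Mx1* -0.19 to 0.72, *Nlrc5* -0.56 to 0.35, *Oas2* -0.92 to 0.32, *Oas3* -0.18 to 0.58, *Parp12* -0.46 to 0.41, *Parp14* -0.048 to 0.36, *Parp9* -0.081 to 0.47, *Samhd1* -1.32 to 0.22, *Stat2* -0.053 to 0.095, *Trim25* -0.12 to 0.16, *Usp18* -0.0021 to 0.61 *Epsti1*, *Ifngr1* and *Gbp4* stayed at 0.68 to 0.75, 0.26 to 0.29 and 0.21 to 0.25. Scaling to all recovered reads turned *Stat2* to -0.012 and *Trim25* to -0.0090, and gave 12 members with both Foxa1/2cKO samples above both controls and a median of 0.11. The other alternatives turned none of the 54. The cause was not tested.

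Deviations of samples with the same replicate number had a correlation of -0.0587 across all genes tested. That single value over all genes cannot decide whether the numbers pair the samples for the members. Sample 1 was the higher of the controls in 36 of the 53 members and the higher of the Foxa1/2cKO samples in 46. Pairing was not tested further than by the block below. With the replicate number as a block, 1 gene of all kinds and 0 members had an adjusted p under 0.05 in limma, and 5 members an unadjusted p under 0.05 with a higher mean. With 2 samples a group, p-values measure the spread between few sorts, and depth limits the lowest members: *Ifi44* had 2 to 16 reads.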
